A study of Mus musculus with 20 samples.

Results

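Liver tumours of exercised mice were compared by RNA-seq with non-tumour liver of mice from the same group. The comparison uses 8 of the 20 libraries of the series, chosen by their titles. They are 4 tumour pieces and 4 non-tumour pieces, numbered mouse 1 to mouse 4 in either tissue, and equal numbers were read as the same animal. All 8 came from wild type male C56BL/6 mice aged 35 weeks. Each mouse had 50 µL of 0.5% DMBA (7,12-dimethylbenz(a)anthracene, a carcinogen, in acetone) put on its back at postnatal day 4 to 5, and was then kept on a diet with 60 kcal% fat, labelled HFD. From 20 weeks of age the mice were trained on a treadmill for 5 weeks, and for the last 10 weeks the belt moved at 18 m/min, on 5 days a week and 20 min daily. They were killed within 2 h of the final run. Both tissues thus share carcinogen, diet and exercise, and the non-tumour liver is not untreated liver. The study set exercised against sedentary mice to ask how running affects tumour promotion; the 4 tumour and 4 non-tumour pieces of the sedentary HFD group, which differ in having had no treadmill running, serve here for the difference between the arms. All 20 libraries, the normal-diet livers included, entered the fit and so also set the gene filter and the estimate of spread behind the p-values. A library is a piece of whole frozen tissue in which hepatocytes, tumour cells, endothelium, macrophages and other cells are mixed.

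Hepatocytes are the main cell of the liver. They secrete most plasma proteins, make cholesterol, bile acids and urea, oxidise fatty acids and break down drugs, and these tasks are divided between cells near the portal vein and cells near the central vein. Liver tumours that arise from hepatocytes are known to re-express genes of the fetal liver, to divide, and to lose part of the metabolic programme of the adult cell. Levels are given in CPM, read counts per gene scaled to a common library total after correction of that total by TMM, so that a CPM value differs from the plain share of reads. The tumour pieces held the hepatocyte transcript Alb, which encodes albumin, at 181645, 153694, 103156 and 133137 CPM in the tumours of mice 1 to 4, against 50930, 70694, 57678 and 60583 CPM in their non-tumour pieces. Every tumour was above every non-tumour piece. Alb took 10.6% to 15.3% of the reads of a tumour library and 4.99% to 7.36% of a non-tumour library.

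Total counts were 19240957 to 20271948 in the tumour libraries and 16809124 to 19513821 in the non-tumour libraries. Mitochondrially encoded genes took 3.26% to 4.50% of the reads in tumours and 4.91% to 5.99% in non-tumour pieces, and the 50 most abundant genes took 38.0% to 48.7% in tumours and 31.8% to 32.8% in non-tumour pieces. On the first principal component of all 20 libraries of the series, with 58.3% of the variance, the tumours of mice 1 to 4 scored 84.8, 71.3, 24.3 and 49.4 and the non-tumour pieces -58.4, -6.54, -42.7 and -44.9. The tissues did not overlap there, and the tumour of mouse 3 and the non-tumour piece of mouse 2 lay nearest to the other tissue.

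Of 14428 genes tested, 2682 (18.6%) were called higher in tumours and 2304 (16%) lower, at an adjusted p under 0.05, with a median log2 fold change of 0.01 over all genes. Throughout, the log2 fold change is tumour over non-tumour, given ± its standard error, and adjusted p-values are from edgeR's quasi-likelihood test with Benjamini-Hochberg adjustment over all genes. Among the called genes, 1231 were higher and 503 lower by at least 2-fold. In 4756 of the 4986 called genes the tumour differed from the non-tumour piece in the same direction in all 4 mice. All 4 tumours lay above all 4 non-tumour pieces for 14.6% of all genes, and below them for 13.9%. That held for 1907 of the genes called higher and 1725 of those called lower. Calls under every one of the 15 alternative analyses were made for 2626 genes. Counts for a gene list below stand against these shares, and no list was tested as a set. List counts given with the mouse as a block come from another fit, with the mouse number as a replicate block. They stand against its own totals, 2374 genes called higher and 1890 lower of 13614 tested. In whole tissue, fewer cells of a type and less RNA per cell cannot be told apart.

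Genes of the fetal liver and known tumour markers were high in the tumours. In the list of oncofetal and tumour marker genes, 20 of the 27 tested members were called higher and 1 lower (median log2 fold change 2.92), and 5 further members, Igf2, Igf2bp1, Igf2bp3, Lin28b and Dlk1, were too low to test. Gpc3, a cell-surface proteoglycan of the fetal liver (chrX:51361303-51702827, minus strand, GRCm39), had 637, 123, 82.8 and 81 CPM in the tumours of mice 1 to 4, against 0.486, 5.02, 0.706 and 0.162 CPM in their non-tumour pieces. Mouse 1 had the highest tumour value and mouse 2 the highest non-tumour value, and the groups did not overlap (log2 fold change 7.13 ± 1.18, adjusted p = 0.000445). Afp, the fetal counterpart of albumin (chr5:90638596-90656766, plus strand), had 782, 33.3, 57 and 71.9 CPM in tumours, against 1.7, 5.41, 0.908 and 0.487 CPM in non-tumour pieces. The tumour of mouse 1 was far above the other 3, and all 4 tumours were above all non-tumour pieces (log2 fold change 6.77 ± 1.17, adjusted p = 0.000591). Akr1c18, a steroid reductase, had 408, 265, 125 and 232 CPM in tumours, against 1.03, 9.5, 0.151 and 0.65 CPM in non-tumour pieces, again with mouse 2 as the highest non-tumour piece (log2 fold change 6.47 ± 0.95, adjusted p = 0.000212). Spp1, which encodes osteopontin, had 1432, 760, 117 and 92.4 CPM in tumours, against 37.2, 107, 48.9 and 42.8 CPM in non-tumour pieces. The tumour of mouse 4 was below the non-tumour piece of mouse 2, so the groups overlapped (log2 fold change 3.35 ± 0.77, adjusted p = 0.00365 (0.0685 with the mouse as a block)). H19, an imprinted RNA of the fetal liver, had 144, 127, 121 and 48.6 CPM in tumours, against 0.668, 64.1, 0.353 and 0.812 CPM in non-tumour pieces. It was low in 3 non-tumour pieces and reached 64.1 CPM in that of mouse 2, and it was called with the mouse as a block and not in the fit without it (log2 fold change 2.73 ± 1.15, adjusted p = 0.0753 (0.048 with the mouse as a block)). Without non-tumour mouse 2 the log2 fold change reached 8.94 for Gpc3, 7.83 for Afp, 8.73 for Akr1c18 and 7.48 for H19 (adjusted p = 0.000248 for H19). Without tumour mouse 1 it was 5.85 for Gpc3, 4.64 for Afp and 2.45 for Spp1. Among the imprinted growth genes as a whole, 5 of the 12 tested members were called higher and 0 lower (median log2 fold change 0.70).

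The genes with the largest fold changes were picked among called genes without overlap between tissues. Several of them had no read in any non-tumour piece. For these only a lower bound of the fold can be given, against a floor of 3 counts summed over the 4 non-tumour libraries. Elfn2, which encodes a leucine-rich repeat membrane protein, had 8.41, 15.8, 0.701 and 1.26 CPM in tumours, against 0, 0, 0 and 0 CPM in non-tumour pieces. All 4 tumours had reads, most in mouse 2, and Elfn2 was at least 141-fold higher in tumours, or at least 73.1-fold without tumour mouse 2. Tmc5, a gene of the transmembrane channel-like family, was at least 85.1-fold higher, with 11.7, 1.26, 2.45 and 0.421 CPM in tumours, against 0, 0, 0 and 0 CPM in non-tumour pieces. Of its 273 tumour counts 194 came from mouse 1, and without that tumour the bound was 32.8-fold. Dlx4os, transcribed on the strand opposite the homeobox gene Dlx4, was at least 49.6-fold higher, with 2.66, 1.6, 1.65 and 2.84 CPM in tumours, against 0, 0, 0 and 0 CPM in non-tumour pieces. Dlx4 itself had 2.96, 3.03, 3.1 and 4.16 CPM in tumours, against 0.182, 0.197, 0.0504 and 0.162 CPM in non-tumour pieces, and it was high in all 4 tumours and low in all non-tumour pieces (log2 fold change 4.43 ± 0.46, adjusted p = 2.37e-05). The genes overlap (chr11:95035878-95049873, plus strand, and chr11:95031273-95037089, minus strand) and were counted by strand. Adm2, which encodes a peptide hormone, was at least 48.3-fold higher, with 2.42, 1.26, 0.701 and 4.16 CPM in tumours, against 0, 0, 0 and 0 CPM in non-tumour pieces, or at least 31.9-fold without tumour mouse 4. Pla2g2e, a secreted phospholipase, was at least 95.4-fold higher, but 276 of its 306 tumour counts came from mouse 2, without which the bound was 12.4-fold.

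Other genes of this group had 1 or 2 counts in the non-tumour libraries together. Cdh17, which encodes liver-intestine cadherin, had 18.4, 5.71, 1.55 and 7.11 CPM in tumours, against 0, 0.0492, 0 and 0.0542 CPM in non-tumour pieces, a ratio of 267 with a counting interval of 73.5 to 2207. Of its 570 tumour counts 304 came from mouse 1, and the ratio was 166 without that tumour. Csn3, which encodes kappa-casein, had a ratio of 356 (63.6 to 14117), and 332 of its 381 tumour counts came from mouse 4 (ratio 61.8 without that tumour). Erich4 had 33.9, 18.8, 10.5 and 14.4 CPM in tumours, against 0.0608, 0.394, 0 and 0 CPM in non-tumour pieces, so that every tumour exceeded the highest non-tumour piece by far (log2 fold change 7.26 ± 0.85, adjusted p = 5.83e-05). Miox, the first enzyme of inositol breakdown, was high in all tumours as well (4.91 to 37.4 CPM in tumours, against 0 to 0.443 CPM in non-tumour pieces, log2 fold change 7.20 ± 0.96, adjusted p = 0.000105). Vmn2r3, a gene of the vomeronasal receptor family, ranged over 0.4 to 34.2 CPM in tumours, against 0 to 0.148 CPM in non-tumour pieces (log2 fold change 8.02 ± 1.39, adjusted p = 0.000585); the tumour of mouse 3, at 0.4 CPM, was much lower than the others. Spink1, a secreted trypsin inhibitor, split the tumours, with 92.3, 73.7, 3.85 and 3.69 CPM in tumours, against 0.0608, 1.72, 0.151 and 0.0542 CPM in non-tumour pieces (log2 fold change 6.35 ± 1.12, adjusted p = 0.000663). Mice 1 and 2 were high and mice 3 and 4 low among tumours, and still above their non-tumour pieces. With non-tumour mouse 2 left out, the log2 fold change was 9.58 for Erich4, 8.99 for Miox, 9.27 for Vmn2r3 and 8.76 for Spink1. It was 7.27 for Vmn2r3 without tumour mouse 4, and 5.67 for Spink1 without tumour mouse 1.

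Pnpla3 had the smallest p-value. It encodes a lipid droplet lipase linked to fatty liver disease in people (chr15:84052038-84071437, plus strand), and it had 17, 14.7, 12.3 and 14 CPM in the tumours of mice 1 to 4, against 0.608, 1.62, 0.655 and 0.379 CPM in their non-tumour pieces. The 4 tumours lay close together and all were several-fold above the highest non-tumour piece (log2 fold change 4.12 ± 0.35, adjusted p = 9.24e-06). Ica1, which encodes a protein of secretory vesicles, was just as separate, with 13.4 to 34.9 CPM in tumours, against 1.35 to 2.17 CPM in non-tumour pieces (log2 fold change 3.59 ± 0.32, adjusted p = 1.14e-05). Ifngr1, a subunit of the interferon gamma receptor, had 95.1, 73, 54.1 and 84.3 CPM in tumours, against 22.2, 26.7, 21.5 and 18.5 CPM in non-tumour pieces. Tumours were above all non-tumour pieces in it, with a small spread in both tissues (log2 fold change 1.78 ± 0.18, adjusted p = 2.37e-05). Slc7a7, a subunit of a transporter for basic amino acids, was higher (12.7 to 30.1 CPM in tumours, against 2.87 to 3.88 CPM in non-tumour pieces, log2 fold change 2.74 ± 0.27, adjusted p = 2.37e-05). Pygb, the brain form of glycogen phosphorylase, was also higher (35.1 to 66.8 CPM in tumours, against 5.2 to 11.2 CPM in non-tumour pieces, log2 fold change 2.95 ± 0.30, adjusted p = 2.37e-05). B4galt6, which makes lactosylceramide, had 30.7 to 72.9 CPM in tumours, against 2.92 to 7.43 CPM in non-tumour pieces (log2 fold change 3.53 ± 0.35, adjusted p = 2.37e-05). Abi2, an actin regulator, had 9.21 to 15.1 CPM in tumours, against 1.94 to 3.4 CPM in non-tumour pieces (log2 fold change 2.45 ± 0.26, adjusted p = 2.37e-05). Itpripl2 had 23.8 to 51.8 CPM in tumours, against 7.8 to 11.1 CPM in non-tumour pieces (log2 fold change 1.95 ± 0.21, adjusted p = 2.37e-05). Syt17, of the synaptotagmin family, had 2 counts in the non-tumour pieces together and 188 in the tumours, a ratio of 88 (counting interval 24 to 732).

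**Figure D1:**
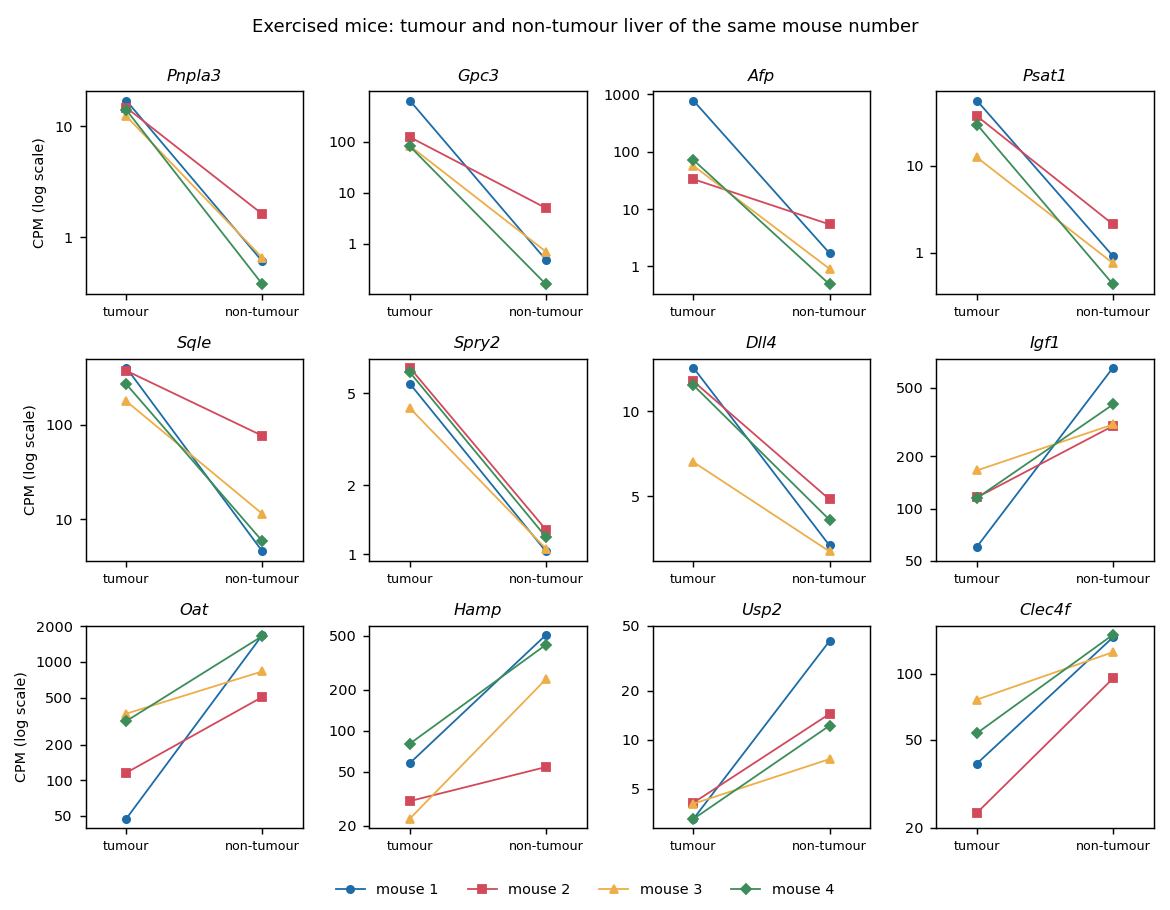
CPM of 12 genes (log axis) in the tumour, left, and the non-tumour piece, right, of each exercised mouse, with a line joining pieces of the same mouse number. Pnpla3, Gpc3, Afp, Psat1, Sqle, Spry2 and Dll4 were higher in the tumour of every mouse, and Igf1, Oat, Hamp, Usp2 and Clec4f were lower in the tumour of every mouse.

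Enzymes of cholesterol synthesis were higher almost throughout. Acetyl-CoA is turned into mevalonate, then into squalene, and squalene is closed and trimmed to cholesterol. Of the 20 enzymes of the pathway, 19 of the 20 tested members were called higher and 0 lower (median log2 fold change 1.83). In 18 of them the tissues did not overlap. Hmgcs1, which makes HMG-CoA, had 1403, 935, 1130 and 1100 CPM in tumours, against 153, 538, 306 and 223 CPM in non-tumour pieces. Its lowest tumour was above the highest non-tumour piece, that of mouse 2 (log2 fold change 1.90 ± 0.32, adjusted p = 0.000447). Mvk, Pmvk and Mvd, 3 enzymes of the mevalonate steps, rose by 2.02, 1.25 and 2.08, and Idi1, Fdps and Fdft1, which lead to squalene, by 1.90, 1.55 and 1.56. Sqle, squalene epoxidase, had 403, 375, 178 and 270 CPM in the tumours of mice 1 to 4, against 4.56, 76.6, 11.4 and 5.85 CPM in their non-tumour pieces. The non-tumour piece of mouse 2 stood out at 76.6 CPM, yet below every tumour (log2 fold change 3.63 ± 0.75, adjusted p = 0.00176). Ebp, a sterol isomerase, was the exception, with 133 to 175 CPM in tumours, against 129 to 174 CPM in non-tumour pieces (log2 fold change -0.00 ± 0.12, adjusted p = 0.995). Without non-tumour mouse 2 the log2 fold change was 5.37 for Sqle and 2.52 for Idi1.

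**Figure D2:**
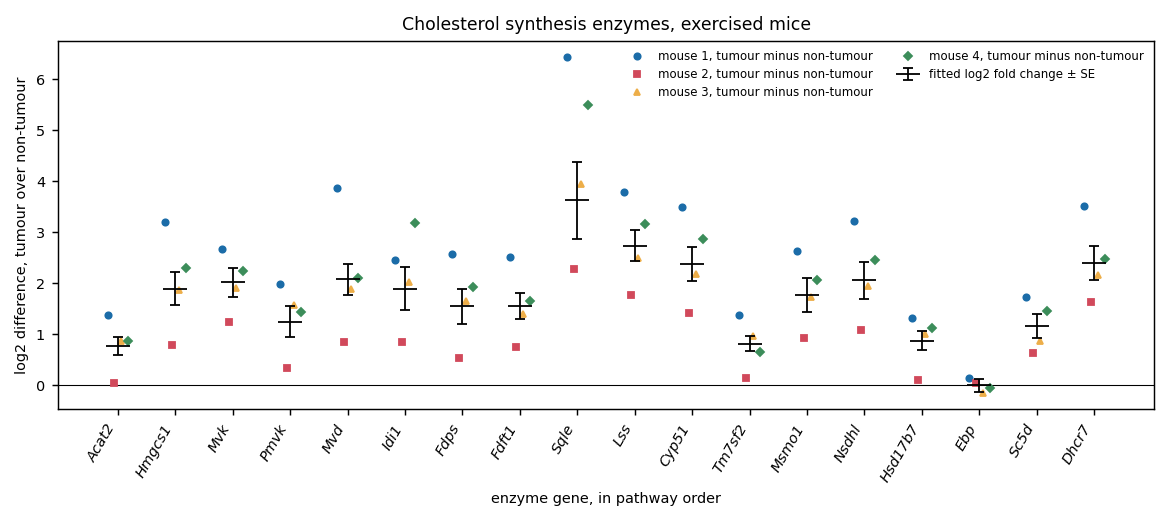
Log2 difference between tumour and non-tumour liver for 18 of the 20 cholesterol synthesis enzymes, in pathway order. Coloured points are the 4 mice and black bars the fitted log2 fold change ± SE. Mouse 1 has the highest point for most enzymes, mouse 2 the lowest for most, and Ebp lies at 0.

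Genes that sense or move sterols did not change as one. In that list, 9 of the 20 tested members were called higher and 1 lower (median log2 fold change 0.17, and 10 higher and 2 lower with the mouse as a block). Npc1l1, the intestinal cholesterol uptake protein and target of ezetimibe, had 11.9, 3.03, 8.01 and 4.32 CPM in tumours, against 0, 0.295, 0 and 0.0542 CPM in non-tumour pieces. It was near 0 in all 4 non-tumour pieces (log2 fold change 6.10 ± 0.80, adjusted p = 0.000139; 8.07 without non-tumour mouse 2). Srebf2 and Scap, the sterol-sensitive transcription factor and its escort, rose by 0.90 and 0.86. Nr1h3, which encodes the sterol-sensing receptor LXR alpha, fell (75.2 to 86.2 CPM in tumours, against 98.8 to 121 CPM in non-tumour pieces, log2 fold change -0.46 ± 0.09, adjusted p = 0.000775).

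For fatty acid and triglyceride synthesis, 9 of the 24 tested members were called higher and 2 lower (median log2 fold change 0.39). Acly, which supplies cytosolic acetyl-CoA, had 838, 631, 466 and 682 CPM in tumours, against 258, 412, 203 and 276 CPM in non-tumour pieces, with every tumour above every non-tumour piece (log2 fold change 1.19 ± 0.31, adjusted p = 0.00742). Fads2, a fatty acid desaturase, rose too (1310 to 2232 CPM in tumours, against 665 to 1118 CPM in non-tumour pieces, log2 fold change 0.93 ± 0.20, adjusted p = 0.00177). Fasn had a log2 fold change of 0.80 ± 0.32 (adjusted p = 0.0563). Scd1, a desaturase, had 3798, 6846, 7695 and 8324 CPM in tumours, against 3598, 8917, 5077 and 8651 CPM in non-tumour pieces. Mouse 1 had the lowest Scd1 in both tissues, and the groups overlapped (log2 fold change 0.02 ± 0.34, adjusted p = 0.967). Srebf1, the factor that controls these genes, had log2 fold change -0.78 ± 0.34, adjusted p = 0.0857 (0.0295 with the mouse as a block). Among lipid droplet coats, lipases and targets of PPARG, 5 of the 20 tested members were called higher and 5 lower (median log2 fold change -0.40, and 5 higher and 8 lower with the mouse as a block). Plin5, a droplet coat protein of oxidising cells, fell (18.8 to 44.9 CPM in tumours, against 63 to 115 CPM in non-tumour pieces, log2 fold change -1.17 ± 0.35, adjusted p = 0.0152). Cidea, which fuses droplets, had 6.29, 6.74, 29.4 and 12.4 CPM in tumours, against 62.2, 41.9, 49.9 and 36.4 CPM in non-tumour pieces. Tumours were below non-tumour pieces in both genes, with mouse 3 the highest tumour for Cidea (log2 fold change -1.79 ± 0.65, adjusted p = 0.0406). Plin2, the main coat protein, had 865 to 973 CPM in tumours, against 564 to 976 CPM in non-tumour pieces (log2 fold change 0.26 ± 0.27, adjusted p = 0.49). Lpl, which hydrolyses plasma triglyceride, had 155, 271, 132 and 152 CPM in tumours, against 28.9, 47.2, 38.4 and 26.9 CPM in non-tumour pieces, with all tumours well above (log2 fold change 2.33 ± 0.28, adjusted p = 6.43e-05). Some alternatives ended the call of Cidea (without tumour mouse 1, 2 or 4, without non-tumour mouse 1, 2, 3 or 4, with DESeq2, with no filter on low counts; adjusted p up to 0.113) and of Plin5 (without tumour mouse 1; adjusted p up to 0.0519). A call was gained for Fasn (adjusted p down to 0.0309) and Srebf1 (down to 0.0263) in some alternatives. Without tumour mouse 3 Cidea had a log2 fold change of -2.50.

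Serine synthesis and genes driven by the amino acid stress factor ATF4 were higher. In the ATF4 list, 10 of the 15 tested members were called higher and 2 lower (median log2 fold change 1.46). Phgdh, the first enzyme of serine synthesis, had 12.5, 5.08, 2.45 and 2.79 CPM in tumours, against 0.122, 0.197, 0.101 and 0.0542 CPM in non-tumour pieces. It was close to 0 in all non-tumour pieces and highest in the tumour of mouse 1 (log2 fold change 5.49 ± 0.75, adjusted p = 0.000108). Psat1, the second enzyme, had 56.4, 37.4, 12.5 and 29.9 CPM in the tumours of mice 1 to 4, against 0.911, 2.12, 0.756 and 0.433 CPM in their non-tumour pieces. Its tissues were widely apart, with mouse 3 the lowest tumour (log2 fold change 4.98 ± 0.57, adjusted p = 5.08e-05). The third enzyme, Psph, rose by 1.45. Asns, asparagine synthetase, had 25.4, 2.91, 4.1 and 4.16 CPM in tumours, against 0.729, 0.443, 0.202 and 0.325 CPM in non-tumour pieces (log2 fold change 4.43 ± 0.92, adjusted p = 0.00189). Slc7a11, the cystine importer, had 8.47, 4.28, 0.451 and 8.27 CPM in tumours, against 0.304, 0.492, 0.101 and 0 CPM in non-tumour pieces, where the tumour of mouse 3 was below the non-tumour piece of mouse 2 (log2 fold change 4.53 ± 1.04, adjusted p = 0.00358). Trib3, a pseudokinase, rose by 2.69, and Atf4 itself by 0.68. Chac1, which degrades glutathione, and Shmt2, the mitochondrial serine enzyme, went the other way, with log2 fold changes of -0.98 ± 0.34 and -0.60 ± 0.14. Calls were not kept for Chac1 (without tumour mouse 2, 3 or 4, without non-tumour mouse 1, with no filter on low counts, in a fit of the 8 libraries alone; adjusted p up to 0.165). Leaving out tumour mouse 1 took the log2 fold change to 4.77 for Phgdh and 3.14 for Asns, and leaving out non-tumour mouse 2 took it to 5.58 for Psat1, 5.29 for Slc7a11 and 3.33 for Trib3. In the list of ER chaperones, 4 of the 18 tested members were called higher and 0 lower (median log2 fold change 0.55, and 9 higher and 0 lower with the mouse as a block). Hspa5, the main chaperone of the ER, had 1717 to 2632 CPM in tumours, against 899 to 1600 CPM in non-tumour pieces (log2 fold change 0.73 ± 0.31, adjusted p = 0.0784 (0.0323 with the mouse as a block)).

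Carbohydrate pathways were mixed. For glycolysis and lactate transport, 2 of the 27 tested members were called higher and 4 lower (median log2 fold change -0.20, and 6 higher and 4 lower with the mouse as a block). For gluconeogenesis, 1 of the 14 tested members were called higher and 4 lower (median log2 fold change -0.40, and 1 higher and 7 lower with the mouse as a block). Pck1, the cytosolic enzyme that starts gluconeogenesis, had 1388, 1085, 851 and 1587 CPM in tumours, against 3297, 2775, 1710 and 2804 CPM in non-tumour pieces. Pck2, its mitochondrial form, had 30.1, 21.6, 11 and 20.8 CPM in tumours, against 4.98, 7.19, 5.45 and 4.77 CPM in non-tumour pieces. The pair moved in opposite directions without overlap in either (log2 fold change -1.11 ± 0.38, adjusted p = 0.03 for Pck1, and log2 fold change 1.89 ± 0.26, adjusted p = 0.000108 for Pck2). G6pdx, the entry enzyme of the pentose phosphate pathway, had 34.7, 12, 19.6 and 23.5 CPM in tumours, against 5.23, 6.84, 5.6 and 4.66 CPM in non-tumour pieces, with the tumour of mouse 1 highest (log2 fold change 2.0 ± 0.30, adjusted p = 0.000215). Over the pentose phosphate and NADPH enzymes, 4 of the 9 tested members were called higher and 3 lower (median log2 fold change 0.07). The call was lost for Pck1 (without tumour mouse 1, 2 or 3, without non-tumour mouse 1 or 4, with no filter on low counts; adjusted p up to 0.08).

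In each of the 4 lists of mitochondrial genes, more members were called lower than higher. Of the nuclear-encoded respiratory chain and ATP synthase, 0 of the 23 tested members were called higher and 23 lower (median log2 fold change -0.46). The tissues did not overlap for 22 of them. Ndufs1, a complex I subunit, had 85.3, 110, 118 and 114 CPM in tumours, against 156, 170, 131 and 138 CPM in non-tumour pieces (log2 fold change -0.48 ± 0.11, adjusted p = 0.00291). Cox4i1, a subunit of cytochrome oxidase, had 257 to 338 CPM in tumours, against 382 to 419 CPM in non-tumour pieces (log2 fold change -0.41 ± 0.10, adjusted p = 0.00569). Both were below the range of the non-tumour pieces in every tumour. Of the mitochondrially encoded genes, 0 of the 7 tested members were called higher and 4 lower (median log2 fold change -0.50, and 0 higher and 2 lower with the mouse as a block). The other 6 members, mt-Atp6, mt-Atp8, mt-Co2, mt-Co3, mt-Nd3 and mt-Nd4l, had counts at or near 0 in all 8 libraries. The reason was not tested, and these values are not read here as absence of the transcripts. They add almost nothing to the mitochondrial share of reads given above. In complex I, mt-Nd2 had 4111 to 5999 CPM in tumours, against 6467 to 9702 CPM in non-tumour pieces (log2 fold change -0.51 ± 0.18, adjusted p = 0.0343 (0.0584 with the mouse as a block)). In complex III, mt-Cytb had 7011 to 10131 CPM in tumours, against 11487 to 12774 CPM in non-tumour pieces (log2 fold change -0.52 ± 0.17, adjusted p = 0.0289 (0.0578 with the mouse as a block)). In complex IV, mt-Co1, of cytochrome oxidase, had 7941 to 10395 CPM in tumours, against 10509 to 12477 CPM in non-tumour pieces (log2 fold change -0.31 ± 0.16, adjusted p = 0.133). For the citrate cycle and pyruvate entry, 0 of the 17 tested members were called higher and 14 lower (median log2 fold change -0.41, and 0 higher and 9 lower with the mouse as a block). Cs, citrate synthase, which opens the cycle, had 82.3, 106, 151 and 113 CPM in tumours, against 156, 181, 164 and 157 CPM in non-tumour pieces. In mouse 3 the tumour, at 151 CPM, came close to the non-tumour pieces (log2 fold change -0.54 ± 0.17, adjusted p = 0.0186). Pdha1, of pyruvate dehydrogenase, had 149 to 186 CPM in tumours, against 201 to 234 CPM in non-tumour pieces (log2 fold change -0.37 ± 0.09, adjusted p = 0.00506 (0.0587 with the mouse as a block)). In fatty acid oxidation and ketogenesis, 1 of the 28 tested members were called higher and 15 lower (median log2 fold change -0.63). Cpt2, which releases fatty acids to the matrix, had 55, 94, 111 and 85.4 CPM in tumours, against 166, 153, 164 and 165 CPM in non-tumour pieces. Acadm, of the first oxidation step, had 221, 327, 344 and 269 CPM in tumours, against 499, 541, 461 and 462 CPM in non-tumour pieces. Neither gene overlapped between tissues, and the tumour of mouse 1 was lowest in both (log2 fold change -0.91 ± 0.19, adjusted p = 0.00166 for Cpt2, and log2 fold change -0.76 ± 0.16, adjusted p = 0.00156 for Acadm). Some alternatives ended the call of mt-Nd2 (without tumour mouse 2 or 4, without non-tumour mouse 1 or 3, in a fit of the 8 libraries alone; adjusted p up to 0.135). The same was so for mt-Cytb (without tumour mouse 1, 2 or 4, without non-tumour mouse 1, 3 or 4; adjusted p up to 0.0878) and Cs (without tumour mouse 1 or 2; adjusted p up to 0.0695).

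Enzymes of amino acid breakdown were lower nearly throughout, and 0 of the 26 tested members were called higher and 23 lower (median log2 fold change -0.81). The tissues did not overlap for 22 of them. Cth, which makes cysteine from cystathionine, had 70.5, 133, 157 and 157 CPM in tumours, against 398, 282, 330 and 431 CPM in non-tumour pieces (log2 fold change -1.48 ± 0.25, adjusted p = 0.000451). Oat, ornithine aminotransferase, had 47.5, 116, 366 and 317 CPM in the tumours of mice 1 to 4, against 1693, 507, 834 and 1659 CPM in their non-tumour pieces. Mice 1 and 4 had the highest non-tumour values, mice 3 and 4 the highest tumour values, and no tumour reached the lowest non-tumour piece (log2 fold change -2.47 ± 0.75, adjusted p = 0.0175). Of the urea cycle and ammonia handling genes, 1 of the 12 tested members were called higher and 6 lower (median log2 fold change -0.91). Asl, argininosuccinate lyase, had 164, 206, 206 and 236 CPM in tumours, against 532, 444, 351 and 563 CPM in non-tumour pieces, with a clear gap between the tissues (log2 fold change -1.22 ± 0.16, adjusted p = 7.82e-05). Ass1, Otc and Cps1, which precede it in the cycle, had log2 fold changes of -1.17 ± 0.24, -0.92 ± 0.19 and -0.90 ± 0.21. Glul, glutamine synthetase of the cells around the central vein, had 182, 295, 1090 and 519 CPM in tumours, against 2042, 1017, 1681 and 1626 CPM in non-tumour pieces. Tumour mouse 3, at 1090 CPM, exceeded the non-tumour piece of mouse 2, at 1017 CPM, so the groups overlapped (log2 fold change -1.61 ± 0.65, adjusted p = 0.0637 (0.038 with the mouse as a block)). Etnppl, a phospholyase of phosphoethanolamine and among the genes with the lowest fold changes, had 1.81, 18.4, 31.4 and 29.9 CPM in tumours, against 132, 116, 132 and 87.7 CPM in non-tumour pieces (log2 fold change -2.52 ± 0.73, adjusted p = 0.0142). No call remained in part of the alternatives for Oat (without tumour mouse 1 or 2; adjusted p up to 0.0547), and 1 was gained for Glul without tumour mouse 3 (log2 fold change -2.27, adjusted p = 0.017).

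Genes of the central vein region, bile acids and drug metabolism were lower. In the pericentral and beta-catenin list, 2 of the 20 tested members were called higher and 11 lower (median log2 fold change -1.16). Cyp2e1, an alcohol-oxidising enzyme of that region, had 394, 960, 2810 and 1650 CPM in tumours, against 7974, 3903, 5970 and 6120 CPM in non-tumour pieces. It was lowest in the tumour of mouse 1 and highest in that of mouse 3, and all tumours lay below all non-tumour pieces (log2 fold change -2.04 ± 0.65, adjusted p = 0.0218). Axin2, a target of beta-catenin, was called with the mouse as a block and not without it (log2 fold change -0.94 ± 0.69, adjusted p = 0.307 (0.028 with the mouse as a block)). Tbx3, another target, followed the same pattern (log2 fold change -1.05 ± 0.70, adjusted p = 0.261 (0.0387 with the mouse as a block)). Both were higher in mice 3 and 4 than in mice 1 and 2 in either tissue, and without tumour mouse 3 they had log2 fold changes of -2.25 and -1.98 with both called. Without non-tumour mouse 3 the value of Axin2 was -0.32. For the periportal genes, 4 of the 14 tested members were called higher and 6 lower (median log2 fold change -0.44). Of the cytochrome P450 families, 3 of the 29 tested members were called higher and 17 lower (median log2 fold change -1.05). Cyp2c37, Cyp2c50 and Cyp2c29 are near copies that could share reads. Cyp2c37 had 4.17 to 56 CPM in tumours, against 112 to 300 CPM in non-tumour pieces (log2 fold change -2.95 ± 0.81, adjusted p = 0.0102). Cyp2c50 had 12.5 to 129 CPM in tumours, against 214 to 707 CPM in non-tumour pieces (log2 fold change -2.69 ± 0.86, adjusted p = 0.0233). Cyp2c29 had 48.3 to 230 CPM in tumours, against 419 to 1025 CPM in non-tumour pieces (log2 fold change -2.45 ± 0.63, adjusted p = 0.00718). All 3 had their lowest value in the tumour of mouse 1. Cyp2a4, a steroid hydroxylase whose reads may be shared with Cyp2a5, rose against this trend, with 1974, 1310, 328 and 616 CPM in tumours, against 2.92, 99.4, 2.52 and 10.1 CPM in non-tumour pieces (log2 fold change 5.20 ± 1.09, adjusted p = 0.00204). For phase II conjugating enzymes, 2 of the 30 tested members were called higher and 17 lower (median log2 fold change -0.78). For NRF2 targets, 4 of the 16 tested members were called higher and 5 lower (median log2 fold change -0.05, and 2 higher and 6 lower with the mouse as a block). Calls were not kept for Cyp2e1 (without tumour mouse 1 or 2, without non-tumour mouse 1, with no filter on low counts; adjusted p up to 0.0637) and Cyp2c50 (without tumour mouse 1 or 2, without non-tumour mouse 1, with no filter on low counts; adjusted p up to 0.0669). With non-tumour mouse 2 left out, Cyp2a4 had a log2 fold change of 7.65.

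In bile acid synthesis and transport, 0 of the 20 tested members were called higher and 13 lower (median log2 fold change -0.89). Slc10a1, which takes bile acids into hepatocytes, had 138, 100, 289 and 172 CPM in tumours, against 559, 284, 409 and 394 CPM in non-tumour pieces. The tumour of mouse 3 was just above the lowest non-tumour piece (log2 fold change -1.24 ± 0.46, adjusted p = 0.0446). Abcb11, the bile salt export pump, had 216 to 426 CPM in tumours, against 505 to 629 CPM in non-tumour pieces (log2 fold change -0.73 ± 0.21, adjusted p = 0.0126). Cyp7a1, the rate-limiting enzyme of bile acid synthesis, had 3.08, 9.19, 45.3 and 44.5 CPM in tumours, against 154, 21, 57.3 and 191 CPM in non-tumour pieces. Its tumours spread over more than 10-fold, and the groups overlapped (log2 fold change -2.05 ± 0.94, adjusted p = 0.102). Among ABC transporters, 5 of the 18 tested members were called higher and 7 lower (median log2 fold change 0.07). Abcc4, an exporter of bile acids and nucleotides, rose, with 2.45 to 16.9 CPM in tumours, against 2.57 to 3.99 CPM in non-tumour pieces (log2 fold change 1.52 ± 0.38, adjusted p = 0.00545). The call was lost for Slc10a1 (without tumour mouse 1, 2 or 4, without non-tumour mouse 1, 3 or 4, with no filter on low counts; adjusted p up to 0.124).

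Secreted proteins of the hepatocyte did not move together. For the albumin family and carrier proteins, 6 of the 9 tested members were called higher and 0 lower (median log2 fold change 0.55). Trf, transferrin, had 66606, 52281, 30648 and 55942 CPM in tumours, against 14701, 19604, 15075 and 16257 CPM in non-tumour pieces. Ahsg, fetuin-A, had 25295, 15833, 8819 and 13125 CPM in tumours, against 5406, 4148, 3563 and 4662 CPM in non-tumour pieces. Tumours exceeded non-tumour pieces in both, with mouse 1 highest and mouse 3 lowest (log2 fold change 1.65 ± 0.27, adjusted p = 0.000328 for Trf, and log2 fold change 1.83 ± 0.29, adjusted p = 0.000284 for Ahsg). Gc, the vitamin D carrier, had 7335 to 11313 CPM in tumours, against 6064 to 6671 CPM in non-tumour pieces (log2 fold change 0.53 ± 0.15, adjusted p = 0.0105 (0.0627 with the mouse as a block)). Pzp, a broad protease inhibitor, had 7830 to 13947 CPM in tumours, against 3335 to 3996 CPM in non-tumour pieces (log2 fold change 1.66 ± 0.22, adjusted p = 7.82e-05). Serpina1b, one of the near-identical antitrypsin copies, had 5336 to 14665 CPM in tumours, against 3045 to 3855 CPM in non-tumour pieces (log2 fold change 1.39 ± 0.29, adjusted p = 0.00186). Selenop, the selenium carrier, had 6992 to 11187 CPM in tumours, against 6600 to 8011 CPM in non-tumour pieces (log2 fold change 0.29 ± 0.15, adjusted p = 0.132). Of apolipoproteins and lipoprotein assembly, 8 of the 22 tested members were called higher and 5 lower (median log2 fold change 0.21). Apoa1, of HDL, had 13619 to 31529 CPM in tumours, against 6292 to 7455 CPM in non-tumour pieces (log2 fold change 1.62 ± 0.23, adjusted p = 0.000135). Apoa4 had 16949, 16198, 11336 and 9649 CPM in tumours, against 938, 6575, 2132 and 1627 CPM in non-tumour pieces, with the non-tumour piece of mouse 2 highest in its tissue (log2 fold change 2.26 ± 0.47, adjusted p = 0.00175; 3.10 without it). Apoe (17340 to 22617 against 19269 to 22988 CPM) and Apob (7654 to 11171 against 7196 to 8743 CPM), of VLDL, overlapped between tumours and non-tumour pieces, with adjusted p = 0.435 and 0.22 in that order.

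For acute phase proteins, 6 of the 24 tested members were called higher and 3 lower (median log2 fold change 0.15, and 6 higher and 5 lower with the mouse as a block). For complement and coagulation factors, 8 of the 33 tested members were called higher and 4 lower (median log2 fold change -0.01). Lcn2, an iron-scavenging protein, had 827, 862, 253 and 1090 CPM in tumours, against 30.4, 66.1, 49.8 and 174 CPM in non-tumour pieces. Tumour mouse 3 was lowest, and the non-tumour piece of mouse 4 highest in its tissue (log2 fold change 3.24 ± 0.69, adjusted p = 0.00209; 3.95 without that piece). Saa1, which rises in inflammation, had 50.4 to 169 CPM in tumours, against 118 to 716 CPM in non-tumour pieces (log2 fold change -1.31 ± 0.60, adjusted p = 0.101; -0.30 without non-tumour mouse 4). In the iron list, 1 of the 13 tested members were called higher and 5 lower (median log2 fold change -0.40, and 2 higher and 5 lower with the mouse as a block). Hamp, which encodes the iron hormone hepcidin, had 57.8, 30.4, 22.6 and 80.3 CPM in the tumours of mice 1 to 4, against 505, 54.1, 239 and 428 CPM in their non-tumour pieces. Non-tumour mouse 2, at 54.1 CPM, fell within the tumour range, and in each mouse the tumour was the lower piece (log2 fold change -2.68 ± 0.70, adjusted p = 0.00765). Ftl1, the ferritin light chain, had 492 to 895 CPM in tumours, against 1162 to 1408 CPM in non-tumour pieces (log2 fold change -0.82 ± 0.17, adjusted p = 0.00153). Cp, the ferroxidase ceruloplasmin, rose (2791 to 4771 CPM in tumours, against 1223 to 1591 CPM in non-tumour pieces, log2 fold change 1.41 ± 0.20, adjusted p = 0.000137).

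In the growth hormone and IGF list, 1 of the 13 tested members were called higher and 4 lower (median log2 fold change -0.56). Growth hormone acts on the liver through its receptor to drive Igf1. Igf1, insulin-like growth factor 1, had 60.2, 116, 166 and 115 CPM in the tumours of mice 1 to 4, against 652, 300, 306 and 399 CPM in their non-tumour pieces. The tumour of mouse 1 was lowest and its non-tumour piece highest, and the groups did not overlap (log2 fold change -1.86 ± 0.63, adjusted p = 0.0297). Igfals, which stabilises circulating IGF1, fell (6.41 to 25.2 CPM in tumours, against 25.6 to 89.9 CPM in non-tumour pieces, log2 fold change -1.83 ± 0.50, adjusted p = 0.0104). Ghr, the receptor, had 179 to 425 CPM in tumours, against 525 to 785 CPM in non-tumour pieces (log2 fold change -0.94 ± 0.27, adjusted p = 0.0114 (0.0548 with the mouse as a block)). Igfbp1, a binding protein that limits IGF1, had 1730, 1376, 370 and 1674 CPM in tumours, against 70.5, 206, 28.2 and 75.4 CPM in non-tumour pieces, and the tumour of mouse 3 was the lowest of the 4 (log2 fold change 3.76 ± 0.66, adjusted p = 0.000678). Cish and Socs2, feedback inhibitors of growth hormone signalling, had log2 fold changes of -0.56 ± 0.75 and -0.96 ± 0.74 (adjusted p = 0.597 for Cish, and adjusted p = 0.338 for Socs2). Some alternatives ended the call of Igf1 (without tumour mouse 1, 2 or 4, without non-tumour mouse 1, with no filter on low counts; adjusted p up to 0.0896). Without non-tumour mouse 2 Igfbp1 had a log2 fold change of 4.45.

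Male-biased liver genes, which in mice depend on the pulses of growth hormone in males, differed widely between animals in both tissues. Of that list, 0 of the 16 tested members were called higher and 6 lower (median log2 fold change -1.60). For no member were the tissues without overlap. Mup11, a major urinary protein gene, had 21.4, 0.571, 81.5 and 9.01 CPM in the tumours of mice 1 to 4, against 1010, 3.69, 238 and 47.4 CPM in their non-tumour pieces. In both tissues mice 1 and 3 were high, mouse 4 lower and mouse 2 lowest, while within each mouse the tumour was the lower piece (log2 fold change -3.53 ± 1.52, adjusted p = 0.0816 (0.0416 with the mouse as a block)). Mup17 had 27.8, 2.11, 104 and 15 CPM in tumours, against 1554, 9.99, 243 and 90.4 CPM in non-tumour pieces. Mup7 had 7.92, 0.628, 29.8 and 10.5 CPM in tumours, against 1022, 3.4, 123 and 61.6 CPM in non-tumour pieces. Both had the same order in the non-tumour pieces as Mup11, and in the tumours mouse 2 was again lowest and mouse 3 highest (log2 fold change -3.67 ± 1.40, adjusted p = 0.0504 for Mup17, and log2 fold change -4.62 ± 1.46, adjusted p = 0.0217 (0.0576 with the mouse as a block) for Mup7). The Mup genes are near-identical, and reads may be split between copies. Slco1a1, a male-biased anion transporter, had 18.6, 1.03, 86.4 and 2.26 CPM in tumours, against 554, 4.28, 128 and 5.96 CPM in non-tumour pieces, with mice 1 and 3 far above mice 2 and 4 in both tissues (log2 fold change -2.67 ± 1.45, adjusted p = 0.165). Hsd3b5, a male-specific steroid enzyme, had 2.36, 0, 2.35 and 0.105 CPM in tumours, against 180, 0.148, 4.29 and 0.217 CPM in non-tumour pieces. Nearly all of the non-tumour signal came from mouse 1 (log2 fold change -5.24 ± 1.55, adjusted p = 0.0154 (0.0825 with the mouse as a block)). For 8 of the 16 members (50%), mice 1 and 3 lay above mice 2 and 4 in both tissues, which was so for 3.24% of all genes tested. This order of mice is the one seen in Mup11 and Slco1a1, members of the same list, and the near-identical Mup genes are not separate cases. The share therefore describes the list and tests nothing. In 11 of the 16 (68.8%), the tumour was lower in all 4 mice, which was so for 27.1% of all genes tested. Cd163, Serpina4-ps1, Mup14 and Cyp4a14 were also among the abundant genes that varied most between tumours, and of these Serpina4-ps1 was called. Cd163, of macrophages, had 0.343 to 11.1 CPM in tumours, against 11.1 to 28.7 CPM in non-tumour pieces (log2 fold change -1.96 ± 0.83, adjusted p = 0.0756; -2.62 with adjusted p = 0.0458 without tumour mouse 4). Serpina4-ps1 had 0.171 to 8.01 CPM in tumours, against 0.689 to 185 CPM in non-tumour pieces (log2 fold change -3.98 ± 1.39, adjusted p = 0.0356). Mup14 had 0.514 to 40 CPM in tumours, against 3.45 to 405 CPM in non-tumour pieces (log2 fold change -3.17 ± 1.33, adjusted p = 0.0727). Cyp4a14, a fatty acid hydroxylase, had 9.44 to 247 CPM in tumours, against 295 to 851 CPM in non-tumour pieces (log2 fold change -1.79 ± 1.13, adjusted p = 0.233). Some alternatives ended the call of Mup7 (without tumour mouse 1, 2 or 4, without non-tumour mouse 1, with no filter on low counts, in a fit of the 8 libraries alone; adjusted p up to 0.164). The same was so for Serpina4-ps1 (without tumour mouse 1, 2 or 4, without non-tumour mouse 1, with no filter on low counts, in a fit of the 8 libraries alone; adjusted p up to 0.271) and Hsd3b5 (without non-tumour mouse 1, in a fit of the 8 libraries alone; adjusted p up to 0.826). Leaving out non-tumour mouse 1 moved the log2 fold change of Hsd3b5 to -0.38, Mup7 to -2.35, Serpina4-ps1 to -1.91, Mup11 to -1.77, Mup17 to -1.61, Mup14 to -1.19 and Slco1a1 to -0.76. Without tumour mouse 3 those values were -5.87, -5.58, -4.83, -5.0, -5.01, -4.65 and -4.60 in the same order, all called. Mup11, Mup14 and Mup17 were also called in some other alternatives (adjusted p down to 0.0307 for Mup11, 0.0275 for Mup14 and 0.0082 for Mup17). For female-biased genes, 4 of the 9 tested members were called higher and 1 lower (median log2 fold change 0.46, and 3 higher and 2 lower with the mouse as a block).

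**Figure D3:**
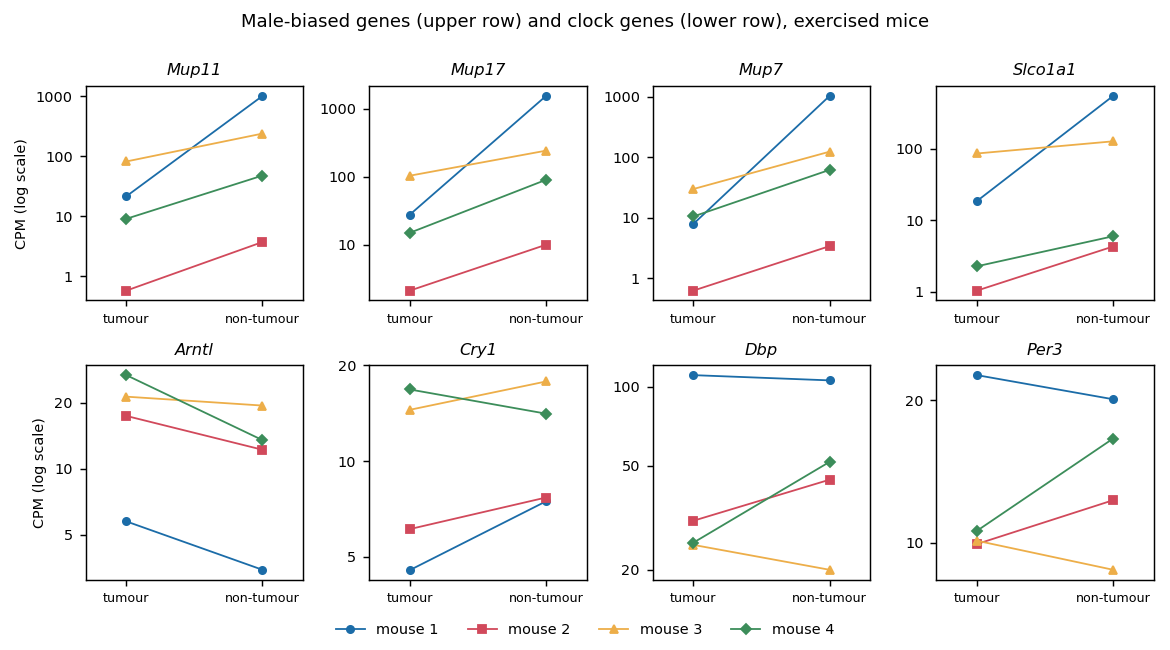
CPM (log axis) of 4 male-biased genes, upper row, and 4 clock genes, lower row, in the tumour, left, and the non-tumour piece, right, of each mouse. In the upper row mouse 2 is the lowest in both tissues, and the tumour is below the non-tumour piece in every mouse. In the lower row mouse 1 is at one end of the range in both tissues.

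Genes of the late cell cycle were higher in every tumour. Of the genes of G2 and mitosis, 29 of the 30 tested members were called higher and 1 lower (median log2 fold change 2.17), without overlap for 27 of those called higher. Mki67, the proliferation marker, had 43.9, 50.3, 25.3 and 37.6 CPM in the tumours of mice 1 to 4, against 3.28, 13.9, 4.34 and 3.57 CPM in their non-tumour pieces. The highest non-tumour piece, that of mouse 2, was below the lowest tumour, that of mouse 3 (log2 fold change 2.63 ± 0.44, adjusted p = 0.000497). Top2a, which untangles DNA before division, had 17.2, 20.8, 11.9 and 21.8 CPM in tumours, against 1.76, 6.6, 2.82 and 2.44 CPM in non-tumour pieces (log2 fold change 2.38 ± 0.37, adjusted p = 0.000286). Cdk1, the mitotic kinase, had 9.31, 11, 4.05 and 9.43 CPM in tumours, against 1.82, 3.54, 1.46 and 1.35 CPM in non-tumour pieces (log2 fold change 2.03 ± 0.41, adjusted p = 0.00152). Non-tumour mouse 2 was the highest of its tissue in both. Ccnb1, the cyclin of Cdk1, had 3.3 to 5.54 CPM in tumours, against 0.243 to 2.56 CPM in non-tumour pieces (log2 fold change 2.28 ± 0.58, adjusted p = 0.00602). With non-tumour mouse 2 left out, the log2 fold change was 3.37 for Mki67 and 3.77 for Ccnb1. The 1 gene called lower was Ccnf, cyclin F, part of a ubiquitin ligase, with 11.9, 17.1, 16 and 14.3 CPM in tumours, against 18.5, 25.9, 20.7 and 20 CPM in non-tumour pieces (log2 fold change -0.52 ± 0.14, adjusted p = 0.00828). DNA replication genes did not rise as a list, and 6 of the 31 tested members were called higher and 3 lower (median log2 fold change 0.17, and 10 higher and 1 lower with the mouse as a block). Mcm10, which loads polymerase at origins, was among those called lower, with 17.5, 15.4, 33.5 and 20.6 CPM in tumours, against 165, 37.3, 70.5 and 58.4 CPM in non-tumour pieces. The non-tumour piece of mouse 1 was highest (log2 fold change -1.92 ± 0.42, adjusted p = 0.00277). Pcna, the sliding clamp, had 22.7, 22.5, 18.7 and 19.4 CPM in tumours, against 22.3, 23.1, 18.2 and 19.8 CPM in non-tumour pieces, and the tissues overlapped fully (log2 fold change -0.00 ± 0.10, adjusted p = 0.997).

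The promoters of these genes were read from RefSeq (GRCm38.p6), from 250 bases before to 50 after the start. The CCAAT box (CCAAT) and the cell cycle homology element (TTTGAA) are known from mitotic genes, and TTCCCGC is a form of the E2F site of S phase genes; all were searched on both strands. Both CCAAT and TTTGAA were present in 18 of 25 promoters found for the G2 and mitosis list (72%) and in 7.12% of all 27025 promoters, and TTCCCGC in none of the 25. In the S phase list, 13 of 25 promoters (52%) held TTCCCGC, against 4.66% of all promoters, and 2 of the 25 held TTTGAA (8%; 18.1% of all promoters). Of the 18 G2 and mitosis genes with both motifs, 17 were called higher, and of the 13 S phase genes with TTCCCGC, 2 were called higher and 0 lower. In the whole lists, 29 of 30 and 6 of 31 were called higher, and 1 and 3 lower. The counts thus do not set genes with the motifs apart from the rest of their list. A match is only a string of letters in this window. CCAAT alone was frequent in both lists. It was in 22 of 25 promoters of the G2 and mitosis list (88%) and 18 of 25 of the S phase list (72%), against 37.9% of all promoters. The promoters of Ube2c and Cenpa, mitotic genes called higher, of Ccnf, the mitotic gene called lower, and of Mcm7 and Rrm1, S phase genes with the E2F motif, are shown in letters. The matches of CCAAT or TTTGAA in the first 3, and of TTCCCGC in the last 2, are in capitals. CCAAT also occurs in the last 2 and is not marked there.
Ube2c, chr2:164769679-164769978, plus strand: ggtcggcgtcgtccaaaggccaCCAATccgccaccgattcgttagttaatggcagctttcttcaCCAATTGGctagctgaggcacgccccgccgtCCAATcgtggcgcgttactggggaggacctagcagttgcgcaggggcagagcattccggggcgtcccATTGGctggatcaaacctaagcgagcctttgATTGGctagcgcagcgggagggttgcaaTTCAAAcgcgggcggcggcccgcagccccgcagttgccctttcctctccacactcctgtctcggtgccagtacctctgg
Cenpa, chr5:30666636-30666935, plus strand: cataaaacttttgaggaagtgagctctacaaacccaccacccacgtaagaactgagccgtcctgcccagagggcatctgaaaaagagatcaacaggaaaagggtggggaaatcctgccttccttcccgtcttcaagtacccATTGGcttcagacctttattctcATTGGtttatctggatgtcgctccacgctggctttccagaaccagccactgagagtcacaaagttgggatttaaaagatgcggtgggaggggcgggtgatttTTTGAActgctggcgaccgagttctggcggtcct
Ccnf, chr17:24251360-24251659, minus strand: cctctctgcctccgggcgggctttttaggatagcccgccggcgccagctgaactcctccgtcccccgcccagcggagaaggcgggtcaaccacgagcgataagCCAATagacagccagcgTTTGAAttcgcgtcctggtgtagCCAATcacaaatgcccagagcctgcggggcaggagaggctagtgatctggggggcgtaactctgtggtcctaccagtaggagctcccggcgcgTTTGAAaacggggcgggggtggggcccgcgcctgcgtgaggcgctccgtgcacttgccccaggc
Mcm7, chr5:138171834-138172133, minus strand: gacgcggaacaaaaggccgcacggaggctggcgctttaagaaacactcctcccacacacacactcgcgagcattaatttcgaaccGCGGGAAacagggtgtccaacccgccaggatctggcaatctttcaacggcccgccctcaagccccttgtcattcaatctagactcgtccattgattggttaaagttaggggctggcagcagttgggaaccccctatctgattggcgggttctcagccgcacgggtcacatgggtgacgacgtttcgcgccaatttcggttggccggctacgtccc
Rrm1, chr7:102441445-102441744, plus strand: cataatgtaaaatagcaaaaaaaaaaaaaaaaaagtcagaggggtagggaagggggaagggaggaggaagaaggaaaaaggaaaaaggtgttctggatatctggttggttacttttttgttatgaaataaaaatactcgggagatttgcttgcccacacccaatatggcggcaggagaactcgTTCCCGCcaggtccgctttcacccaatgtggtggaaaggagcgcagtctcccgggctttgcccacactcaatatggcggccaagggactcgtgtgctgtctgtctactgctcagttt

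Ube2c, which brings ubiquitin to mitotic substrates, had 7.92, 7.77, 4.36 and 6.16 CPM in tumours, against 1.15, 2.51, 0.958 and 1.14 CPM in non-tumour pieces. Cenpa, the histone of centromeres, had 18.5, 18.7, 9.81 and 14.9 CPM in tumours, against 3.52, 6.99, 4.84 and 4.28 CPM in non-tumour pieces. Neither overlapped between tissues (log2 fold change 2.17 ± 0.31, adjusted p = 0.000125 for Ube2c, and log2 fold change 1.65 ± 0.24, adjusted p = 0.000138 for Cenpa). Mcm7, of the replicative helicase, had 15, 15.1, 13.7 and 13.2 CPM in tumours, against 13.1, 14.2, 11.7 and 11.4 CPM in non-tumour pieces. Rrm1, of ribonucleotide reductase, had 13.1, 18.8, 11.6 and 13.9 CPM in tumours, against 12, 15.4, 11.8 and 9.8 CPM in non-tumour pieces. The tissues overlapped in both (log2 fold change 0.17 ± 0.10, adjusted p = 0.211 for Mcm7, and log2 fold change 0.23 ± 0.15, adjusted p = 0.243 for Rrm1). For cholesterol enzymes, 13 of 15 promoters found held CCAAT (86.7%; 37.9% of all promoters), and 1, that of Hmgcs1, held the sterol element TCACNCCAC (1.22% of all promoters). The Hmgcs1 promoter (GRCm38.p6) is shown for both, with TCACNCCAC and CCAAT matches in capitals.
Hmgcs1, chr13:119690101-119690400, plus strand: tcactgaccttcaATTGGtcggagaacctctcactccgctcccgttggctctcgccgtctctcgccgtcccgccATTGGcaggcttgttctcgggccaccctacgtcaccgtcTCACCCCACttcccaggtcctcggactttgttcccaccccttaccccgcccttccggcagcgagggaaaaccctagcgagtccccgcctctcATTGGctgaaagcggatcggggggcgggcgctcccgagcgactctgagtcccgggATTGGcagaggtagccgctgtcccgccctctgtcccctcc

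E2f1 and Myc, the factors that drive entry into S phase and cell growth, were not called in either direction. E2f1 had 6.11, 6.97, 6.46 and 5.53 CPM in the tumours of mice 1 to 4, against 5.77, 6.35, 6.6 and 6.5 CPM in their non-tumour pieces; the groups overlapped throughout (log2 fold change -0.01 ± 0.14, adjusted p = 0.965). Myc had 12.3, 11.8, 6.71 and 9.85 CPM in tumours, against 15.2, 8.22, 5.39 and 7.09 CPM in non-tumour pieces, highest in mouse 1 in both tissues (log2 fold change 0.18 ± 0.45, adjusted p = 0.78). Over the list of E2F, retinoblastoma and Myc network factors, 4 of the 23 tested members were called higher and 4 lower (median log2 fold change 0.09). Rbl1, the retinoblastoma-related p107, rose (6.46 to 9.71 CPM in tumours, against 3.03 to 5.37 CPM in non-tumour pieces, log2 fold change 1.13 ± 0.22, adjusted p = 0.00113). Rbl2, p130, fell (29 to 34.1 CPM in tumours, against 41.5 to 53.8 CPM in non-tumour pieces, log2 fold change -0.55 ± 0.09, adjusted p = 0.000353). Mxd3, a partner of Max, had 0.79 to 1.88 CPM in tumours, against 0.0504 to 0.689 CPM in non-tumour pieces (log2 fold change 2.44 ± 0.58, adjusted p = 0.00424; 4.02 without non-tumour mouse 2). Of G1 cyclins, CDK inhibitors and p53 targets, 9 of the 25 tested members were called higher and 0 lower (median log2 fold change 0.63). Ccne1, cyclin E1, had 10.5, 9.76, 3.3 and 6.64 CPM in tumours, against 0.79, 1.87, 0.857 and 0.866 CPM in non-tumour pieces. Ccnd1, cyclin D1, had 134, 131, 59.7 and 91.8 CPM in tumours, against 32.3, 73.5, 28.9 and 40.9 CPM in non-tumour pieces. Cyclin E1 separated the tissues, and cyclin D1 did not because non-tumour mouse 2 exceeded tumour mouse 3 (log2 fold change 2.76 ± 0.40, adjusted p = 0.000153 for Ccne1, and log2 fold change 1.24 ± 0.35, adjusted p = 0.0122 for Ccnd1). Cdkn2b, an inhibitor of the cyclin D kinases, had 22.8, 12.7, 5.46 and 12.9 CPM in tumours, against 0.243, 0.394, 0.151 and 0.108 CPM in non-tumour pieces, with a wide gap between tissues (log2 fold change 5.85 ± 0.71, adjusted p = 6.43e-05). Cdkn1a, the p53 target p21, had 61.8, 140, 36.8 and 62.9 CPM in tumours, against 12.9, 116, 27.9 and 31.7 CPM in non-tumour pieces, and the non-tumour piece of mouse 2 lay among the tumours (log2 fold change 0.67 ± 0.53, adjusted p = 0.345). Without that piece Cdkn1a had a log2 fold change of 1.62 (adjusted p = 0.0117). For ubiquitin ligase genes linked to E2F1 or Myc turnover, 1 of the 16 tested members were called higher and 3 lower (median log2 fold change 0.13, and 2 higher and 3 lower with the mouse as a block). For ribosome biogenesis, which Myc is known to drive, 4 of the 24 tested members were called higher and 1 lower (median log2 fold change 0.07).

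Feedback genes of the ERK pathway, which are switched on by ERK and damp it, were higher. In that list, 11 of the 20 tested members were called higher and 0 lower (median log2 fold change 0.60). Spry2, an inhibitor upstream of Ras, had 5.5, 6.45, 4.31 and 6.16 CPM in the tumours of mice 1 to 4, against 1.03, 1.28, 1.06 and 1.19 CPM in their non-tumour pieces, with a narrow range within either tissue (log2 fold change 2.29 ± 0.25, adjusted p = 2.53e-05). Dusp4, Dusp5 and Dusp6 are phosphatases that act on ERK. Dusp4 had 5.06 to 26 CPM in tumours, against 1.03 to 4.44 CPM in non-tumour pieces (log2 fold change 2.50 ± 0.51, adjusted p = 0.00155). Dusp5 had 6.31 to 15.7 CPM in tumours, against 0.433 to 3.1 CPM in non-tumour pieces (log2 fold change 3.24 ± 0.52, adjusted p = 0.000328). Dusp6 had 75.2 to 135 CPM in tumours, against 35.2 to 56.3 CPM in non-tumour pieces (log2 fold change 1.13 ± 0.25, adjusted p = 0.00243). None of the 3 overlapped between tissues, and mouse 3 had the lowest tumour in all. Hras, Nras and Braf had log2 fold changes of 0.02 ± 0.08, 0.13 ± 0.08 and 0.06 ± 0.09, none of them called. Without non-tumour mouse 2 Dusp5 had a log2 fold change of 4.26. Among growth factor receptors, 3 of the 17 tested members were called higher and 2 lower (median log2 fold change 0.10). Fgfr2 had 124, 76.5, 55.6 and 74.1 CPM in tumours, against 28.9, 31.7, 33.4 and 29.6 CPM in non-tumour pieces (log2 fold change 1.42 ± 0.20, adjusted p = 0.000112). Egfr, the EGF receptor, had 111 to 317 CPM in tumours, against 102 to 482 CPM in non-tumour pieces (log2 fold change -0.25 ± 0.48, adjusted p = 0.722). For immediate early AP-1 and EGR genes, 5 of the 16 tested members were called higher and 0 lower (median log2 fold change 0.45). Fos had 14.4, 17.5, 4.2 and 12.3 CPM in tumours, against 5.23, 17.2, 1.01 and 20.8 CPM in non-tumour pieces (log2 fold change 0.12 ± 0.60, adjusted p = 0.892). For YAP targets and regulators, 2 of the 13 tested members were called higher and 0 lower (median log2 fold change 0.09, and 2 higher and 1 lower with the mouse as a block). For insulin signalling components, 3 of the 13 tested members were called higher and 3 lower (median log2 fold change -0.17, and 2 higher and 1 lower with the mouse as a block). For glucocorticoid targets and metallothioneins, 0 of the 11 tested members were called higher and 0 lower (median log2 fold change -0.08, and 1 higher and 2 lower with the mouse as a block). In the last of these lists 1 member had an unadjusted p under 0.05, and DESeq2 called 1 lower.

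In the Notch pathway, 8 of the 11 tested members were called higher and 0 lower (median log2 fold change 1.26). Dll4, a ligand of endothelial cells, had 14.3, 12.8, 6.61 and 12.4 CPM in the tumours of mice 1 to 4, against 3.34, 4.87, 3.18 and 4.12 CPM in their non-tumour pieces. Tumour mouse 3 was lowest, yet above every non-tumour piece (log2 fold change 1.57 ± 0.25, adjusted p = 0.000266). Nrarp, a target of the pathway, had 3.9 to 9.68 CPM in tumours, against 1.9 to 2.85 CPM in non-tumour pieces (log2 fold change 1.48 ± 0.27, adjusted p = 0.000716). Hes1, another target, had 16 to 49.1 CPM in tumours, against 4.33 to 20.2 CPM in non-tumour pieces (log2 fold change 1.60 ± 0.44, adjusted p = 0.00974). Notch2 had 46.6 to 77.3 CPM in tumours, against 30.4 to 43.6 CPM in non-tumour pieces (log2 fold change 0.79 ± 0.15, adjusted p = 0.00112). Vascular endothelial markers moved in the same direction as Dll4: their summed level was 188 to 300 CPM in tumours and 149 to 169 CPM in non-tumour pieces, and 10 of the 12 tested members were called higher and 0 lower (median log2 fold change 1.0). Their part in the Notch values was not tested. Cd34, found on vessels of liver tumours, had 11.5, 12.2, 2.95 and 11.6 CPM in tumours, against 0.911, 2.12, 1.11 and 0.433 CPM in non-tumour pieces (log2 fold change 3.04 ± 0.48, adjusted p = 0.000286). Esm1, of endothelial tip cells, had 9.41 to 42.4 CPM in tumours, against 0.65 to 12 CPM in non-tumour pieces (log2 fold change 3.03 ± 0.71, adjusted p = 0.00408). Pecam1 had 25.6 to 50.4 CPM in tumours, against 18.6 to 25.8 CPM in non-tumour pieces (log2 fold change 0.87 ± 0.19, adjusted p = 0.00217). With non-tumour mouse 2 left out, Esm1 had a log2 fold change of 4.95, and the call was lost for Hes1 (in a fit of the 8 libraries alone; adjusted p up to 0.0585).

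For sinusoidal endothelial markers, 3 of the 15 tested members were called higher and 0 lower (median log2 fold change 0.18, and 2 higher and 1 lower with the mouse as a block). Lyve1 had 15.2 to 24.3 CPM in tumours, against 7.41 to 30.1 CPM in non-tumour pieces (log2 fold change 0.40 ± 0.50, adjusted p = 0.575). Stab2, a scavenger receptor, had 47.3 to 74.2 CPM in tumours, against 51.6 to 62.7 CPM in non-tumour pieces (log2 fold change 0.18 ± 0.19, adjusted p = 0.487). For basement membrane and other collagens, 5 of the 15 tested members were called higher and 0 lower (median log2 fold change 0.36). Lama5, a laminin chain, had 49.1, 39.1, 12.1 and 27.4 CPM in tumours, against 2.92, 3.89, 3.68 and 3.09 CPM in non-tumour pieces (log2 fold change 3.22 ± 0.45, adjusted p = 0.000128). Col4a1, of collagen IV, had 75.3 to 230 CPM in tumours, against 34.3 to 72.1 CPM in non-tumour pieces (log2 fold change 1.71 ± 0.31, adjusted p = 0.000739).

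Markers of Kupffer cells, the resident macrophages of the liver, were lower in tumours. They summed to 258 to 516 CPM in tumours and 625 to 750 CPM in non-tumour pieces, and 0 of the 13 tested members were called higher and 5 lower (median log2 fold change -0.99, and 0 higher and 10 lower with the mouse as a block). The tissues did not overlap for 10 of the 13. Clec4f, a receptor known from Kupffer cells, had 39.1, 23.4, 76.2 and 53.7 CPM in the tumours of mice 1 to 4, against 146, 95.1, 125 and 150 CPM in their non-tumour pieces. The tumour of mouse 2 was lowest and that of mouse 3 highest, and all were below the non-tumour pieces (log2 fold change -1.42 ± 0.44, adjusted p = 0.0202). Marco, a scavenger receptor, had 2.66, 0.628, 13 and 13 CPM in tumours, against 47, 13.5, 39.7 and 46 CPM in non-tumour pieces. Timd4, which binds dying cells, had 0.907, 0.343, 3.55 and 3.69 CPM in tumours, against 10.9, 3.64, 9.73 and 11.5 CPM in non-tumour pieces. Mice 1 and 2 had the lowest tumours in both (log2 fold change -2.31 ± 0.81, adjusted p = 0.0364 for Marco, and log2 fold change -2.05 ± 0.68, adjusted p = 0.0277 for Timd4). For lipid-associated and monocyte-derived macrophages, 3 of the 13 tested members were called higher and 0 lower (median log2 fold change 0.78). Trem2 had 1.63 to 4.71 CPM in tumours, against 0.921 to 4.97 CPM in non-tumour pieces (log2 fold change 0.42 ± 0.53, adjusted p = 0.579; 1.05 without non-tumour mouse 2). Calls were not kept for Clec4f (without tumour mouse 1 or 2, with no filter on low counts; adjusted p up to 0.065). They were also lost for Marco (without tumour mouse 1 or 2, without non-tumour mouse 1, 3 or 4, with no filter on low counts, in a fit of the 8 libraries alone; adjusted p up to 0.0988), and for Timd4 (without tumour mouse 1 or 2, without non-tumour mouse 1, 3 or 4, with no filter on low counts, in a fit of the 8 libraries alone; adjusted p up to 0.0815).

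No marker of lymphocytes or neutrophils was called in the edgeR fit without the block. The counts were 0 higher and 0 lower of 14 (median 0.04) for T and NK cells and 0 higher and 0 lower of 8 (median 0.46, and 1 higher and 0 lower with the mouse as a block) for B and plasma cells. They were 0 higher and 0 lower of 8 (median -0.11) for neutrophils and 0 higher and 0 lower of 9 (median 0.55) for MHC class II genes. None of these members had an unadjusted p under 0.05, and DESeq2 also called 0. T and NK markers summed to 25.9 to 41.0 CPM in tumours and 24.7 to 39.7 CPM in non-tumour pieces, and 9 of the 23, Foxp3 and Ifng among them, were too low to test. For stellate cells and fibroblasts, 4 of the 22 tested members were called higher and 1 lower (median log2 fold change 0.66, and 7 higher and 4 lower with the mouse as a block). Acta2, smooth muscle actin, had 26.5, 17.4, 4.86 and 3.05 CPM in tumours, against 2.8, 4.28, 2.62 and 1.68 CPM in non-tumour pieces (log2 fold change 2.17 ± 0.60, adjusted p = 0.0109). Col1a1, the main fibrillar collagen, had 54.5, 56.9, 31.1 and 17.8 CPM in tumours, against 6.32, 41.8, 18.4 and 6.44 CPM in non-tumour pieces. The non-tumour piece of mouse 2 was within the tumour range (log2 fold change 1.13 ± 0.54, adjusted p = 0.114). Leaving out tumour mouse 1 ended the call of Acta2 (log2 fold change 1.56, adjusted p = 0.0575), and leaving out non-tumour mouse 2 gave one for Col1a1 (1.92, adjusted p = 0.00903). Of cholangiocyte and progenitor markers, 5 of the 12 tested members were called higher and 0 lower (median log2 fold change 0.62). Their summed level of 159 to 1555 CPM in tumours and 69.6 to 162 CPM in non-tumour pieces was mostly Spp1. Sox9 had 7.56 to 18.2 CPM in tumours, against 2.67 to 8.61 CPM in non-tumour pieces (log2 fold change 1.39 ± 0.37, adjusted p = 0.00789). The duct keratin Krt19 had 0.514 to 0.901 CPM in tumours, against 0.304 to 1.11 CPM in non-tumour pieces (log2 fold change -0.14 ± 0.41, adjusted p = 0.823). For erythroid markers the counts were 0 higher and 1 lower of 6 (median -0.85), and for hepatocyte identity markers 4 higher and 7 lower of 16 (median -0.26). Among hepatocyte transcription factors, 3 of the 18 tested members were called higher and 5 lower (median log2 fold change -0.25). Hnf4a had 522 to 628 CPM in tumours, against 589 to 721 CPM in non-tumour pieces (log2 fold change -0.13 ± 0.11, adjusted p = 0.404).

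Signals of inflammation were mixed. For interferon-stimulated genes, 4 of the 24 tested members were called higher and 1 lower (median log2 fold change 0.01, and 2 higher and 1 lower with the mouse as a block). For chemokines and receptors, 3 of the 21 tested members were called higher and 2 lower (median log2 fold change 0.29). For genes of senescence-linked inflammation and pyroptosis, 5 of the 15 tested members were called higher and 1 lower (median log2 fold change 0.40). Il1rn, the antagonist of the IL-1 receptor, had 47.7, 57.8, 18.1 and 46.3 CPM in tumours, against 3.34, 8.47, 3.78 and 6.34 CPM in non-tumour pieces (log2 fold change 2.95 ± 0.45, adjusted p = 0.000284). Il33, an alarmin, had 17.9, 11.1, 10 and 7.9 CPM in tumours, against 2.13, 3.74, 2.07 and 2.65 CPM in non-tumour pieces (log2 fold change 2.14 ± 0.33, adjusted p = 0.000223). The tissues did not overlap in either gene. Ccl9, a chemokine of mice, had 62.1 to 141 CPM in tumours, against 18.2 to 52.1 CPM in non-tumour pieces (log2 fold change 1.84 ± 0.29, adjusted p = 0.000323).

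Several clock genes had mouse 1, or mouse 3, at the same end of the range in both tissues, and some genes driven by the clock differed between the tissues. Over the clock and its output factors, 2 of the 20 tested members were called higher and 4 lower (median log2 fold change -0.18, and 4 higher and 7 lower with the mouse as a block). In the fit without the block, 18.6% of all genes were called higher and 16% lower, 34.6% together. In that fit the list did not exceed the joint share. With the mouse as a block, 2374 of 13614 genes were called higher and 1890 lower. The list, at 4 and 7 of 20, was above both of those shares. Arntl, which encodes the clock factor Bmal1, had 5.75, 17.4, 21.3 and 26.7 CPM in the tumours of mice 1 to 4, against 3.46, 12.2, 19.4 and 13.5 CPM in their non-tumour pieces. Mouse 1 was lowest in both tissues, and in each mouse the tumour was higher (log2 fold change 0.55 ± 0.39, adjusted p = 0.288 (0.0281 with the mouse as a block)). Dbp, an output factor, had 111, 30.8, 24.9 and 25.4 CPM in tumours, against 106, 44.2, 20 and 51.7 CPM in non-tumour pieces. Mouse 1 was highest in both tissues (log2 fold change -0.20 ± 0.47, adjusted p = 0.768). Per3 had 22.6, 9.94, 10.1 and 10.6 CPM in tumours, against 20.1, 12.3, 8.77 and 16.6 CPM in non-tumour pieces, with mouse 1 highest as well (log2 fold change -0.12 ± 0.30, adjusted p = 0.787). Cry1, a repressor of the clock, had 4.54, 6.11, 14.5 and 16.8 CPM in tumours, against 7.47, 7.68, 17.8 and 14.1 CPM in non-tumour pieces, with mice 1 and 2 below mice 3 and 4 in both tissues (log2 fold change -0.16 ± 0.35, adjusted p = 0.747). Per1, Per2, Cry2 and Nr1d1 had log2 fold changes of 0.14 ± 0.27, 0.27 ± 0.21, -0.15 ± 0.09 and 0.17 ± 0.25, and of these only Per2 was called in any analysis, with the mouse as a block (adjusted p = 0.0432). For 11 of the 20 clock genes (55%) mouse 1 was at the same end of the range in both tissues, which held for 20.8% of all genes. For mouse 3 the count was 9 of 20 (45%), against 18.3% of all genes. Arntl, Dbp, Per3 and Cry1, described above, are among the genes counted for mouse 1, and both counts include Dbp and Tef. The shares describe the list and test nothing. Usp2, a ubiquitin protease under clock control, had 3.27, 4.11, 4.05 and 3.27 CPM in the tumours of mice 1 to 4, against 40.3, 14.4, 7.61 and 12.2 CPM in their non-tumour pieces. The tumours were within a narrow range and all below the non-tumour pieces, of which mouse 1 was highest (log2 fold change -2.34 ± 0.38, adjusted p = 0.000323; -1.64 without non-tumour mouse 1). Hlf, an output factor, fell (31.3 to 40.8 CPM in tumours, against 59.2 to 70.1 CPM in non-tumour pieces, log2 fold change -0.81 ± 0.14, adjusted p = 0.000593). Tef, another, fell as well (54.8 to 73.4 CPM in tumours, against 80.7 to 153 CPM in non-tumour pieces, log2 fold change -0.88 ± 0.23, adjusted p = 0.00771). Npas2, a partner of Bmal1, had 2, 7.71, 10.3 and 10.2 CPM in tumours, against 0.668, 2.22, 4.08 and 2.98 CPM in non-tumour pieces, and in each mouse the tumour was more than 2-fold higher (log2 fold change 1.59 ± 0.44, adjusted p = 0.0108). The call was lost for Npas2 (in a fit of the 8 libraries alone; adjusted p up to 0.0734).

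The tumours differed from each other in how far they stood from their non-tumour pieces. Over the genes called higher, the median log2 difference was 1.21, 0.807, 0.51 and 0.845 in mice 1 to 4, and over those called lower it was -0.871, -0.502, -0.337 and -0.561. Mouse 1 had the widest and mouse 3 the narrowest difference. The tumour of mouse 3 was the lowest of the tumours in 1855 of the 2682 genes called higher (69.2%; 28% of all genes), and the highest in 1440 of the 2304 called lower (62.5%; 26.8% of all genes). The non-tumour piece of mouse 2 was the highest of its tissue in 1415 of the genes called higher (52.8%; 30.4% of all genes), and the lowest in 1134 of those called lower (49.2%; 28.9% of all genes). These shares describe the called genes, which the same libraries chose. By list, cholesterol enzymes had median differences of 2.60, 0.82, 1.80 and 2.08 in mice 1 to 4, pericentral genes -2.59, -1.27, -0.57 and -1.29, and Kupffer cell markers -1.22, -1.60, -0.32 and -1.04. Mouse 2 was thus lowest for cholesterol enzymes and furthest from 0 for Kupffer cell markers, so the lists did not rank the mice in 1 order. Within tissues, the median SD of log2 CPM was 0.25 among tumours and 0.21 among non-tumour pieces, and 8779 of the 14428 genes had the larger SD in tumours.

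**Figure D4:**
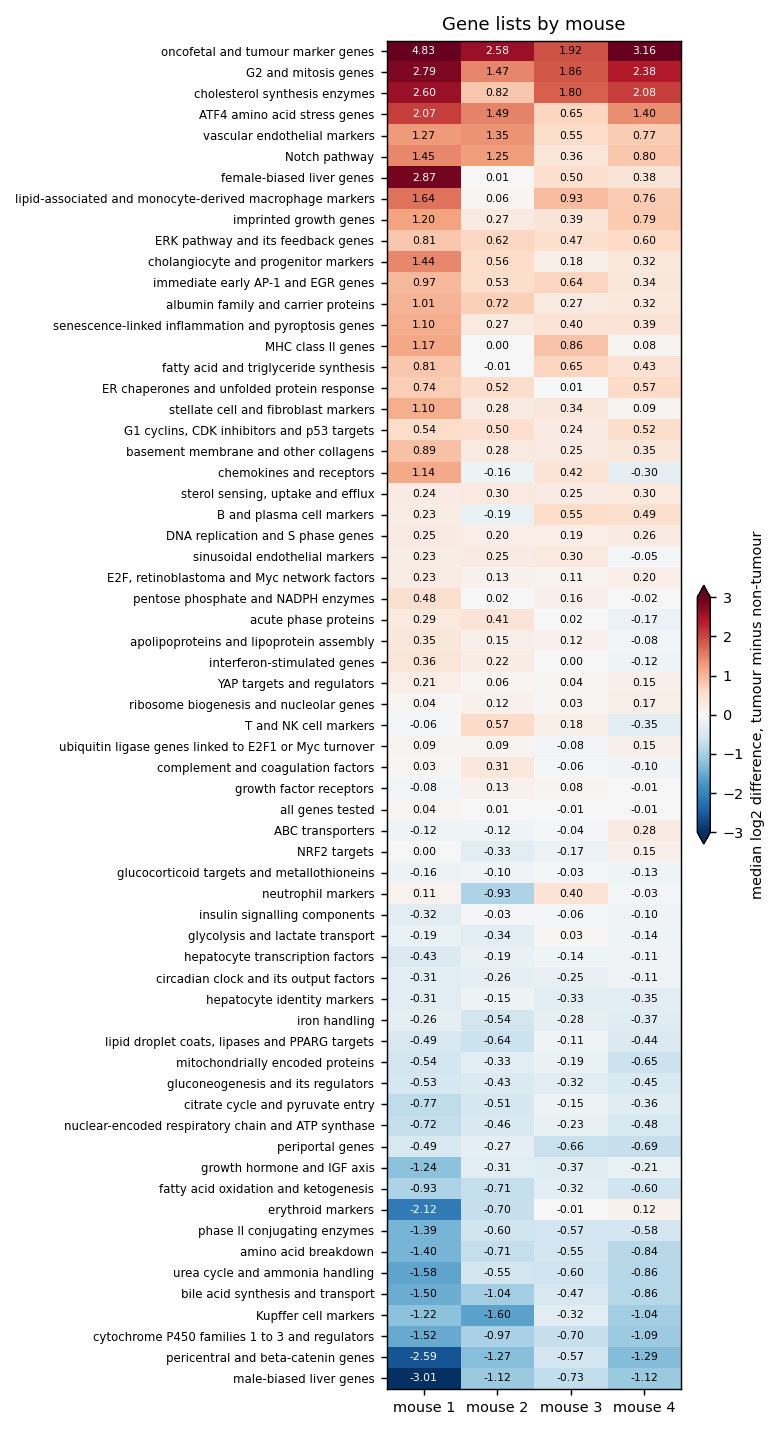
Median log2 difference between tumour and non-tumour liver over the tested members of each gene list, in each mouse, from red (higher in tumour) to blue (lower). The oncofetal, mitotic, cholesterol and ATF4 lists are positive in all 4 mice, and the amino acid breakdown, bile acid, P450 and pericentral lists are negative in all 4, with the smallest differences mostly in mouse 3.

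**Figure D5:**
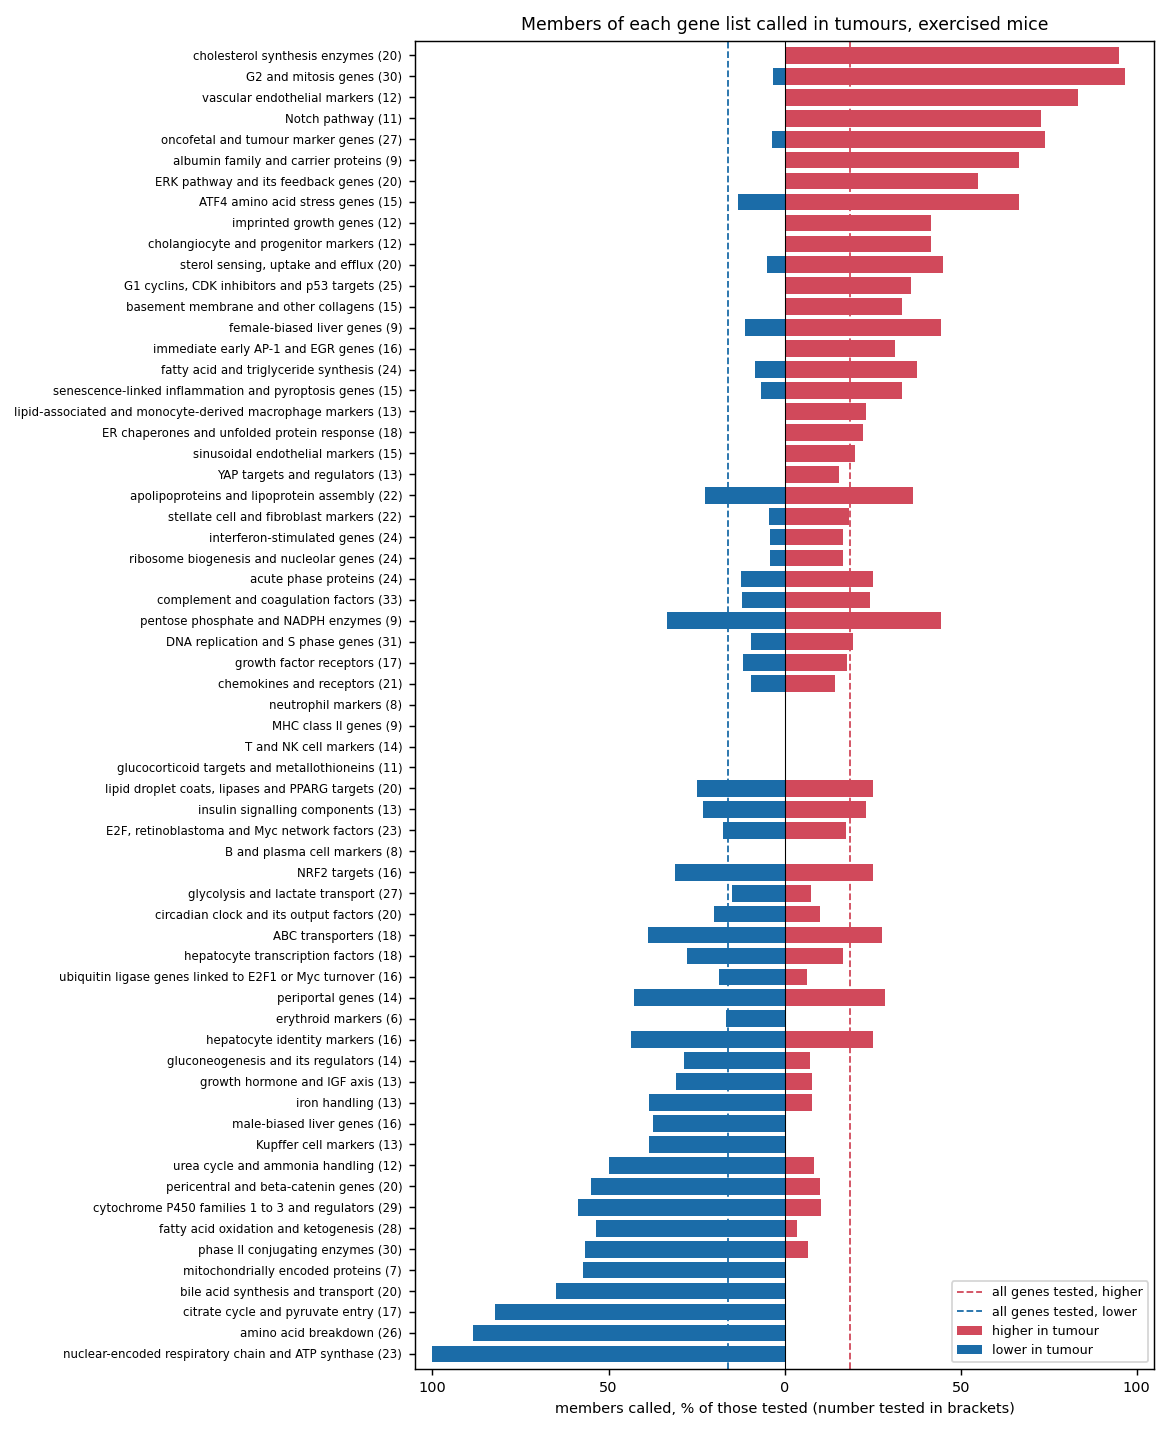
Share of tested members of each gene list called higher in tumours, to the right, or lower, to the left, with the number tested in brackets and the shares over all genes (18.6% and 16%) as dashed lines. The longest bars are the 29 of 30 genes of G2 and mitosis and the 19 of 20 cholesterol enzymes on the right and the 23 of 23 respiratory chain genes on the left.

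The difference between tumour and non-tumour liver was then compared between exercised and sedentary mice. No gene differed between the arms at an adjusted p under 0.05 (0 of 14428, 0%; DESeq2 also called 0), and 293 genes had an unadjusted p under 0.05, or 303 with DESeq2. The 293 and 303 genes are fewer than chance alone would give on average at that threshold. The comparison rests on 4 pieces of each tissue in each arm, so the lack of calls does not show that the arms are alike. In sedentary mice the tumour contrast alone called 35.8% of genes, against 34.6% in exercised mice. The 5 genes with the smallest p-values for the arm difference had unadjusted values of 0.00111 to 0.00176 in edgeR's quasi-likelihood test, and an adjusted p = 1 each. First of them was St8sia3, a sialyltransferase, with 0.363, 0.343, 0.601 and 1 CPM in tumours, against 1.15, 0.591, 0.807 and 0.542 CPM in non-tumour pieces in exercised mice. Its log2 fold change was -0.40 in exercised mice and -2.94 in sedentary mice. Pdgfd, a growth factor, had log2 fold changes of 1.0 in exercised and -0.33 in sedentary mice. Shoc2, a scaffold of the Ras pathway, had -0.40 in exercised and 0.02 in sedentary mice. Gm15564 had -1.09 in exercised and 0.39 in sedentary mice. Cd300lg, an endothelial receptor, had 0.39 in exercised and -0.29 in sedentary mice. In exercised mice its call was lost in part of the alternatives, without tumour mouse 1, 2 or 4, without non-tumour mouse 2, 3 or 4, with no filter on low counts, in a fit of the 8 libraries alone (adjusted p up to 0.0985). Usp2 had -2.34 in exercised and -1.23 in sedentary mice, and Cd34 had 3.04 in exercised and 1.64 in sedentary mice; neither difference was called (adjusted p = 1 for both). DNA replication genes called higher numbered 6 of 31 in exercised and 16 of 31 in sedentary mice, and none of the 31 had a called difference between the arms.

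The remaining genes with the lowest fold changes, picked among called genes without overlap between tissues, were at low levels. Lrtm1 had 0, 1.37, 1.85 and 4.21 CPM in tumours, against 19.9, 5.41, 11 and 24.3 CPM in non-tumour pieces (log2 fold change -3.0 ± 0.78, adjusted p = 0.00761). Cnmd, which encodes chondromodulin, had 0.114 to 0.474 CPM in tumours, against 0.837 to 4.98 CPM in non-tumour pieces (log2 fold change -2.88 ± 0.69, adjusted p = 0.00422). Nat8, an acetyltransferase, had 0.726 to 3.3 CPM in tumours, against 3.4 to 16.6 CPM in non-tumour pieces (log2 fold change -2.38 ± 0.65, adjusted p = 0.00999). Grid1, a glutamate receptor subunit, had 0 to 0.685 CPM in tumours, against 0.886 to 3.3 CPM in non-tumour pieces (log2 fold change -2.58 ± 0.76, adjusted p = 0.0146). Dct, dopachrome tautomerase, had 0.121 to 0.951 CPM in tumours, against 1.67 to 5.71 CPM in non-tumour pieces (log2 fold change -2.38 ± 0.64, adjusted p = 0.00891). Mup2 had 0.0605 to 1 CPM in tumours, against 1.13 to 5.71 CPM in non-tumour pieces (log2 fold change -2.68 ± 0.75, adjusted p = 0.0111). No tumour reached the lowest non-tumour piece in any of these 6 genes, which the way they were picked required. Without tumour mouse 4 Lrtm1 had a log2 fold change of -3.78, without tumour mouse 3 Nat8 had -3.02, and without non-tumour mouse 1 Cnmd had -2.18.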

How the data were processed

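RNAiso Plus was used on frozen tissue and the TruSeq Stranded mRNA kit for the libraries, per the labels' protocols. Reads were trimmed with Trim Galore 0.6.10, aligned to GRCm39 with STAR 2.7.11a and counted with featureCounts of Subread 2.0.5, per the submitters' processing notes. Each deposited file holds raw counts per gene, with strand setting 2 and the GENCODE M27 annotation per the file headers. From these counts, CPM (counts scaled to a common library total) and all tests were computed here.

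The tests used edgeR 4.0.16 (R 4.3.3): TMM scaling, filterByExpr, 1 mean for each of 5 groups over all 20 libraries, 15 residual degrees of freedom, the quasi-likelihood test, and Benjamini-Hochberg adjustment over 14428 genes with a threshold of 0.05. The log2 CPM values use a prior count of 2. Alternatives were other scaling, DESeq2 1.42.0, other filters, the 8 libraries alone, the mouse number as a block, and leaving out each library. Equal mouse numbers in the titles were read as the same animal; the labels do not say so outright. P-values rest on the variation among these libraries, and counting intervals cover counting error only.

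The comparison, the gene lists and the tests were chosen with earlier results of these data known. The genes named are the 12 highest and 12 lowest called folds at a mean of 1 CPM or more without overlap between tissues and with an established symbol, the 10 smallest p-values, the 15 highest mean levels, the 10 most variable among tumours, the 5 smallest p-values of the arm difference, E2f1, Myc and clock genes, and members of the lists; those of the lists and any others were in part chosen after their values were seen. The script was tested on simulated data. Other groups of the series, and gene copies that share reads, were not analysed further. A few genes that the rule names are not reported here.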

Additional observations from a re-analysis of the deposited data

Results flagged for a closer look

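In 26 of 386 gene and tissue combinations, 1 of the 4 libraries lay far from the other 3 on the log2 CPM scale, so that its gap to the nearest other library, as a share of the whole range, was above the 95% critical value of Dixon's test. Chance alone gives about 1 in 20 such cases. The gap as a share of the range is given in brackets after each gene. The non-tumour piece of mouse 2 accounted for 10 cases: it was the highest of its tissue for the mitotic cyclin Ccnb1 (0.866), the G1 cyclin Ccne1 (0.896), the collagen Col4a1 (0.85), the imprinted RNA H19 (0.86), the droplet coat Plin5 (0.837), the phosphorylase Pygb (0.905) and the pseudokinase Trib3 (0.844), and the lowest for Cpt2 of fatty acid oxidation (0.885) and for the Kupffer cell genes Marco (0.865) and Timd4 (0.855).

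Another 8 cases were in the tumour of mouse 1. It was the highest tumour for Asns (0.838), the clock genes Dbp (0.858) and Per3 (0.917), the cholesterol enzyme Fdft1 (0.944) and the growth hormone feedback gene Socs2 (0.846). It was the lowest for Cyp4a14 (0.9), Dct (0.892) and Srebf1 (0.866). Among the tumours, mouse 3 was the lowest for the endothelial genes Cd34 (0.96) and Esm1 (0.837), for Cdk1 (0.831), Hnf4a (0.86) and Igfbp1 (0.852). Mouse 4 had the highest tumour for Dlx4 (0.865) and the lowest for H19 (0.841). The non-tumour piece of mouse 1 was the highest for Socs2 (0.941), as in its tumour.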

How the results depend on the processing

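Over scaling by RLE or upper quartile, DESeq2, testing of every gene with no filter, a minimum of 1 CPM in 4 libraries and the mouse number as a replicate block, the count of genes higher in tumours was 2632, 2716, 2774, 2213, 2506 and 2374, and of genes lower 2342, 2281, 2522, 1820, 2367 and 1890. Both stayed within 1.5 times of the 2682 and 2304 reported. A fit of the 8 libraries alone, without the block, gave 1942 higher and 1490 lower. It was the 1 setting in which a count moved by more than 1.5 times. The fit with the block used the same 8 libraries, and the reason for the move was not tested. Leaving out 1 library at a time gave 2078 to 2851 genes higher and 1653 to 2685 lower, with the fewest without tumour mouse 1 and the most without tumour mouse 3. No gene differed between the arms under any of the 15 alternatives. Same-numbered pieces deviated together in mice 2, 3 and 4 (correlation of deviations 0.441, 0.373 and 0.313) and hardly in mouse 1 (0.0754), and pieces with other numbers had correlations of -0.4 to 0.199. With the mouse as a block, 8 of the 143 called genes named here lost their call and 9 uncalled ones gained one, and the block changed no other call among the 193 named genes that it could fit.

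Of the 143 called genes named here, 117 were called in every alternative that could fit them and none changed direction. These genes were in part picked for small p-values or large folds. Over all 4986 called genes, 2626 were called in all 15 alternatives, where a gene that an alternative did not test counts as not called. The sign of 15 uncalled genes changed when 1 library was left out, within -0.05 to 0.12 for Braf, -0.91 to 0.34 for Cish, -0.49 to 0.10 for Cry1, -1.03 to 0.31 for Dbp, -0.07 to 0.04 for E2f1, -0.63 to 0.46 for Egfr, -0.28 to 0.61 for Fos, -0.01 to 0.05 for Hras, -0.38 to 0.14 for Krt19, -0.02 to 0.55 for Myc, -0.01 to 0.33 for Nr1d1, -0.03 to 0.33 for Per1, -0.50 to 0.07 for Per3, -0.18 to 0.22 for Scd1 and -1.82 to 0.65 for Socs2. Ebp and Pcna, at 0.00 with all libraries, ranged over -0.10 to 0.06 and -0.08 to 0.04. Of 1890 list counts under the alternatives, 198 moved by over 1.5 times, mostly in lists with few calls. Library size was similar in all 8 libraries, and genes under about 1 CPM rest on few reads.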
